A study of Homo sapiens with 12 samples.

Results

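The homologous recombination and Fanconi genes are a set of 35 genes named by the pathway they serve, and a member was taken as measured where a transcript cluster of the array carried its symbol and no other. That gave 31 of 35 members, with 1 cluster each, among 17958 genes measured in the same way. BRCA2, FANCA, FANCD2 and RBBP8 are not analysed here. The cells were BT549, a mesenchymal-like triple-negative breast cancer line, and the study asked what estrogen receptor β2 (ERβ2), a splice form of the ESR2 gene, does to gene expression in them. In 1 experiment the cells were transfected with siRNAs against ERβ2 or with control siRNA and RNA was taken 48 h later. In the other they were transfected with the pcDNA3 plasmid carrying flag-tagged ERβ2 or with the empty vector (EV) and RNA was taken 24 h later. Each of the 4 groups had 3 biological replicates, 12 arrays in all, and all groups were the same line after a transient transfection, with no array of untransfected cells used here. The sources do not name the siRNA sequence behind these arrays.

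Homologous recombination repairs a double-strand break by copying the intact sister DNA. The MRE11, RAD50 and NBN complex finds the break, the ends are cut back, and mediator proteins prepare the single strand for pairing. RAD54 motors then help to open the sister duplex, and helicases and nucleases take apart the joined molecules. The Fanconi anaemia pathway handles crosslinks between DNA strands: a core complex attaches ubiquitin to FANCI and FANCD2, and recombination then completes the repair. Both are used mainly in S and G2 phase, and the kinases ATM and ATR with CHEK2 and CHEK1 signal the damage to the cell cycle. Breast and ovarian cancer genes lie among these members, which is why the pathway is followed in triple-negative breast cancer.

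The values were log2 signals, so a difference of 1 is a doubling, and the arrays were close to each other, with array medians from 5.04 to 5.14. Mesenchymal markers were bright (VIM 12.16, SPARC 11.74 and FN1 11.33 as means over 12 arrays), whereas CDH1, EPCAM, ESR1 and PGR lay between 3.47 and 3.95 and the leukocyte marker PTPRC at 3.45. The luminal markers GATA3 (8.52) and ERBB2 (8.00) and the keratins KRT8 (7.44) and KRT18 (10.02) were not low. The ESR2 cluster, which does not separate the receptor's splice forms, read 4.12, 3.99 and 3.80 with ERβ2 siRNA, against 4.03, 3.88 and 4.05 with control siRNA. It read 4.35, 4.72 and 4.37 with ERβ2 plasmid, against 4.08, 3.93 and 4.01 with EV. The siRNA groups overlapped (difference -0.02, SE 0.09, 95% CI -0.22 to 0.19). Both lay near the levels of ESR1 (3.93) and CDH1 (3.95), so this cluster may have little room to fall. The arrays therefore cannot show whether the receptor was depleted. The paper reports lower ERβ2 mRNA by qPCR after ERβ2 siRNA in BT549 cells, and more ERβ2 protein by Western blot after overexpression. The plasmid arrays all lay above EV by 0.47 on average (SE 0.10, adjusted p = 0.449). EV replicate 2 stood apart among the members: it was the highest of the 3 EV arrays for 27 of 31 members, against 50.3% of all genes.

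Promoter windows are printed for 4 members whose level differed between ERβ2 siRNA and control siRNA, so that the genes that moved in opposite directions can be seen side by side. RAD54L and BRIP1 had the largest falls, FANCC fell and was the member with 2 E2F matches, and FANCF was the riser with the largest change that the sequence table held. The windows come from RefSeq on GRCh38.p14 and run from 250 bases before the gene start to 50 after it, 5′ to 3′ on the gene's strand. They lie at chr17:61863479-61863778 (minus strand, BRIP1), chr1:46247438-46247737 (plus strand, RAD54L), chr9:95317660-95317959 (minus strand, FANCC) and chr11:22625774-22626073 (minus strand, FANCF). Capitals mark matches, on either strand, to the CCAAT box, to the cell cycle element CHR (TTTGAA or TTCGAA) and to the E2F site (TTTCCCGC, TTTCGCGC, TTTGCCGC or TTTGGCGC). No 2 matches overlap in these windows. FANCC and RAD54L each have a second start, whose window is not printed. That of FANCC held no E2F or CHR match, and in that of RAD54L the CCAAT boxes begin at -140 and -77.
BRIP1: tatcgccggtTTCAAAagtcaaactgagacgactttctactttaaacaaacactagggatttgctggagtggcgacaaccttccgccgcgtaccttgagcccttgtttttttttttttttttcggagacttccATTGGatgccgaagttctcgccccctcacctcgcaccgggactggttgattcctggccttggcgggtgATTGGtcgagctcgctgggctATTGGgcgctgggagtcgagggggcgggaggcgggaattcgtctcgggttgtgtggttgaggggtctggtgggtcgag
RAD54L: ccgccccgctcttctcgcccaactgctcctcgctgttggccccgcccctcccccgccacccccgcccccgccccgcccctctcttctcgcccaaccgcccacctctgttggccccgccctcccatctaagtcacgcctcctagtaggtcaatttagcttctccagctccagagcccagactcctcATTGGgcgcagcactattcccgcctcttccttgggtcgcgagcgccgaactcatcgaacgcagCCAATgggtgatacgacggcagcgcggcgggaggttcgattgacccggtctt
FANCC: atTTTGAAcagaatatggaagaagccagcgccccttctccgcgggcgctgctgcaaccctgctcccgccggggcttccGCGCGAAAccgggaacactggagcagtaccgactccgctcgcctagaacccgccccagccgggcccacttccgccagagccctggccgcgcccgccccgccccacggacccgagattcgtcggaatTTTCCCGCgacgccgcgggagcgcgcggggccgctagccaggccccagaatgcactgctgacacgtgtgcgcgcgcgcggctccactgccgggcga
FANCF: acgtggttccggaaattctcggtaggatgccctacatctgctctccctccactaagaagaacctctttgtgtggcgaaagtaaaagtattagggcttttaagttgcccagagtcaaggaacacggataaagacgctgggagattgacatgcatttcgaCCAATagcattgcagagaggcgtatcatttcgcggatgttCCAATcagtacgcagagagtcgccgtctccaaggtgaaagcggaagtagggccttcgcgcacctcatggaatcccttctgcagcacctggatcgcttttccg

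Of the 31 measured members, 26 had a promoter window in the table. A CCAAT box stood in 14 of the 26 (53.8%), against 39.7% of 27305 genes. Of the 10 members with a window that fell after ERβ2 siRNA 6 held one, of the 5 that rose 2 did, and of the 11 that did not pass 6 did (54.5%). E2F matches were in FANCC, XRCC2 and RMI1 only (11.5%, against 3.99% of all genes), and CHR matches in FANCC, BRIP1 and ATM (11.5%, against 19.5%). Counted from the start, the 3 CCAAT boxes of BRIP1 begin at -117, -49 and -28, and the 2 of FANCF at -92 and -52. These are matches of letters, counted over the starts that RefSeq gives, and no binding was measured.

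With ERβ2 siRNA members were lower more often than genes at large, and higher about as often. The members and the lists used below were chosen with earlier results of these data known, so shares above those of all genes do not test a set. Of 31 members 12 were lower than with control siRNA (38.7%, against 17.5% of all 17958 genes), 6 were higher (19.4%, against 18.3% of all genes) and 13 did not pass, where passing means an adjusted p of at most 0.1 in limma's moderated test. The falls took in both RAD54 motors, both subunits of the MUS81 nuclease, 3 of 7 mediators of strand pairing, 2 of 5 helicases and dissolution factors, 2 of 7 core complex genes and FANCI. The rises took in 2 of 4 checkpoint kinases, NBN, 2 core complex genes and 1 mediator, RAD51B. At the study's threshold of 1.5-fold, 2 members were called lower, BRIP1 and RAD54L (6.45%, against 1.26% of genes), and 2 were called higher, NBN and FANCF (6.45%, against 3.25%). The median change of the members was -0.10, against -0.03 over all genes. No member had a mean under 5, and among genes of at least that mean 22.6% were lower and 30.7% higher, with 12 and 7 of the members. The share of members that were higher was therefore near or below that of other genes, and the rises are given as values of single genes. With each array centred on the median of its genes, the members split into 15 lower and 4 higher and all genes into 34.3% lower and 12.8% higher. That scaling moved the median of all genes to -0.12 here, and in the comparison of EV with control siRNA to -0.21, against -0.06 as deposited.

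**Figure D1:**
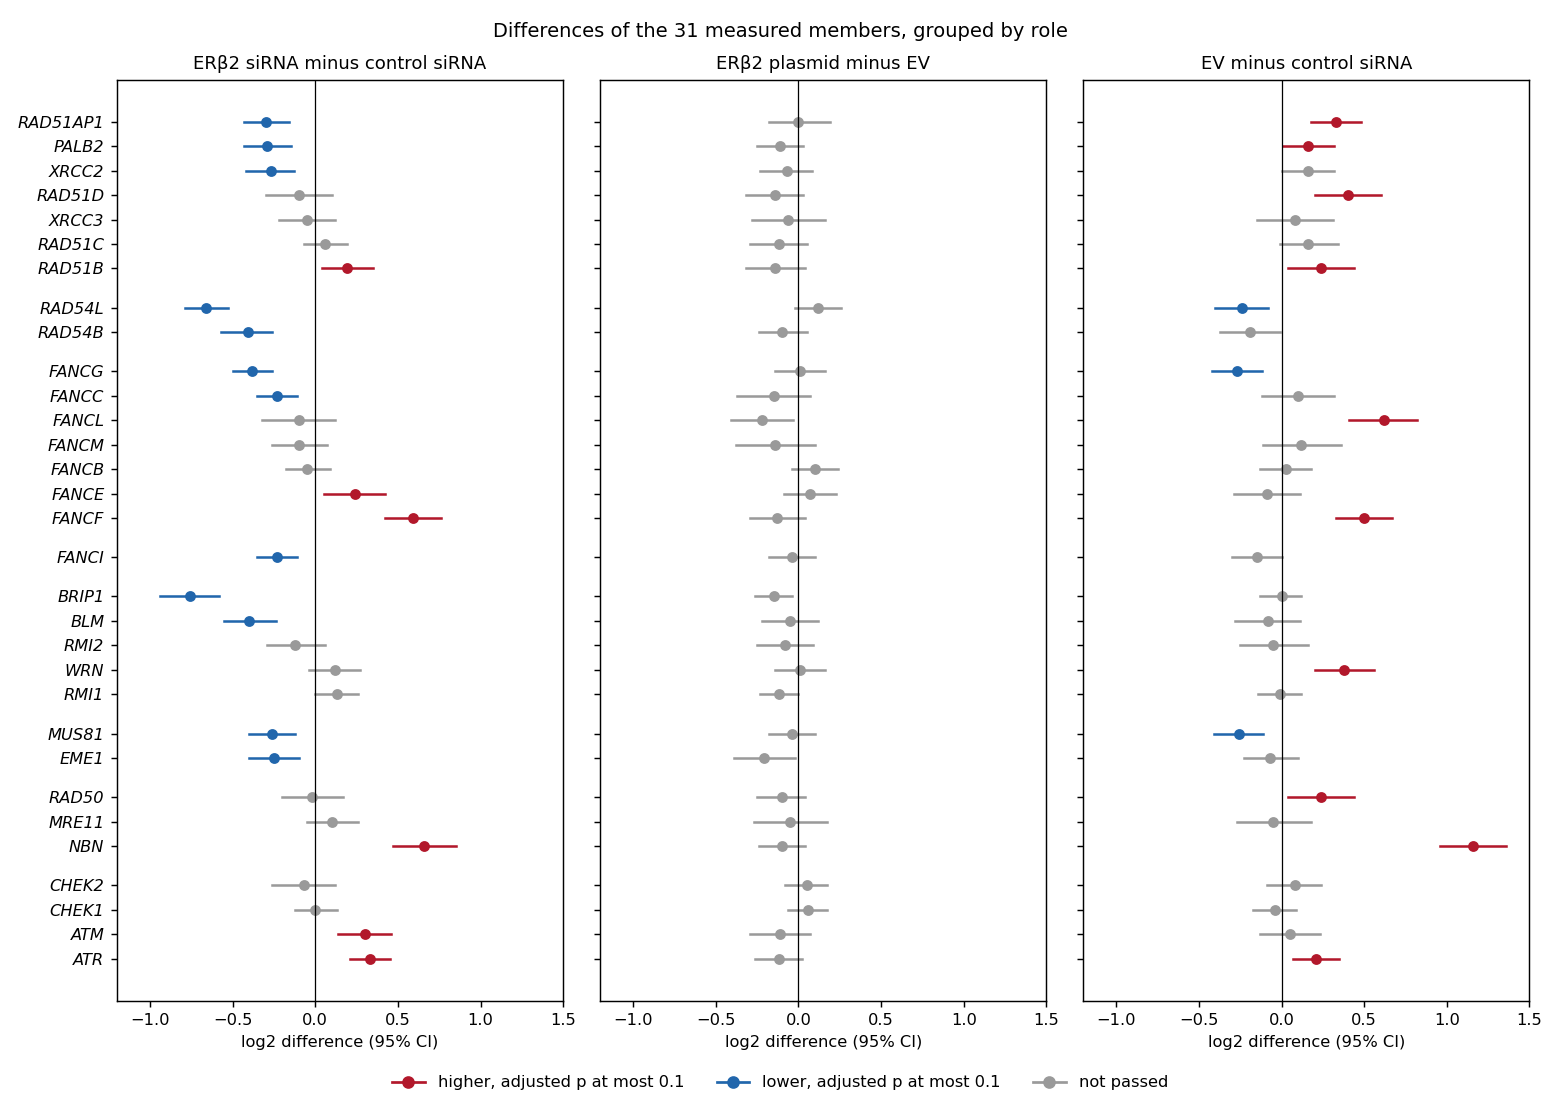
Log2 differences of the 31 measured members with 95% confidence intervals (lines), grouped by role from mediators of strand pairing at the top to checkpoint kinases at the bottom, for ERβ2 siRNA minus control siRNA (left), ERβ2 plasmid minus EV (middle) and EV minus control siRNA (right), 3 arrays a group. The left panel has 12 members lower and 6 higher, the middle panel none that passed, and the right panel 10 higher and 3 lower, led by NBN at 1.16.

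The helicase BRIP1 (FANCJ), which partners BRCA1 and unwinds DNA at crosslinks, had the largest change in the set. Its signals were 7.29, 7.01 and 7.06 with ERβ2 siRNA, against 7.86, 7.89 and 7.89 with control siRNA. The groups were far apart, and the spread lay mostly in ERβ2 siRNA replicate 1, which fell least. BRIP1 was lower by a log2 change of -0.76 (SE 0.08, adjusted p = 2.2e-04), that is 0.590 of the control siRNA level. BLM, the RecQ helicase that dissolves double Holliday junctions, read 8.05, 8.02 and 8.05 with ERβ2 siRNA, against 8.54, 8.32 and 8.45 with control siRNA, a change of -0.40 (SE 0.07, adjusted p = 0.00291). Its partners in the dissolution complex did not pass: RMI2 changed by -0.12 (adjusted p = 0.29) and RMI1 by 0.13 (adjusted p = 0.114). WRN, the related helicase with an exonuclease domain, changed by 0.12 (adjusted p = 0.241). RMI1 passed as higher in 6 of 19 alternatives (0.13 to 0.18), among them the fit without dim genes and 1 fit over all 4 groups. RMI2 passed as lower when quantile normalized again or centred on the median of the genes (-0.20 in both) and without control siRNA replicate 1 (-0.18), and WRN as higher without that array (0.18).

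RAD54L, a motor protein of strand exchange, had the smallest p of all members. It read 7.74, 7.69 and 7.69 with ERβ2 siRNA, against 8.37, 8.31 and 8.43 with control siRNA. Every ERβ2 siRNA array lay far below every control siRNA array, with little spread within either group. The change was -0.66 (SE 0.06, adjusted p = 8.7e-05), or 0.631 of the control siRNA level. Its paralog RAD54B read 7.98, 7.93 and 7.96 with ERβ2 siRNA, against 8.48, 8.38 and 8.25 with control siRNA, a change of -0.41 (SE 0.07, adjusted p = 0.00267). The nuclease that cuts joined molecules fell in both subunits, MUS81 by a change of -0.26 (SE 0.06, adjusted p = 0.0124) and EME1 by -0.25 (SE 0.07, adjusted p = 0.0249). EME1, the regulatory subunit, read 6.61, 6.44 and 6.49 with ERβ2 siRNA, against 6.83, 6.75 and 6.70 with control siRNA, without overlap.

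Among the mediators, RAD51AP1, which helps to pair strands, read 7.51, 7.55 and 7.60 with ERβ2 siRNA, against 7.92, 7.78 and 7.85 with control siRNA. PALB2, which joins BRCA1 to BRCA2, read 8.40, 8.43 and 8.41 with ERβ2 siRNA, against 8.80, 8.64 and 8.67 with control siRNA. Neither overlapped, and the changes were of like size, -0.30 for RAD51AP1 (SE 0.06, adjusted p = 0.00712) and -0.29 for PALB2 (SE 0.06, adjusted p = 0.00832). The other 5 mediators, which work together in complexes on DNA, did not move as a block. XRCC2 was lower (-0.27, SE 0.06, adjusted p = 0.0122), RAD51B was higher (0.19, SE 0.07, adjusted p = 0.0637), and RAD51C (0.06), RAD51D (-0.10) and XRCC3 (-0.05) did not pass. The sign of RAD51C and XRCC3, and that of FANCB in the core complex, depended on the scaling, and RAD51D passed as lower (-0.19) with arrays centred on the median of their genes. RAD51B lost its call when any 1 of the arrays except control siRNA replicate 3 was left out, with changes of 0.15 to 0.20, and in 2 scalings (0.11). It was also lost in the test over all transcript clusters, with an intensity trend and robust prior, and at an adjusted p under 0.05. The study's own kind of test with Benjamini-Hochberg adjustment lost it too, which makes 11 of 19 alternatives in all.

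In the Fanconi core complex the members went in both directions. FANCG, a scaffold subunit, read 8.59, 8.53 and 8.52 with ERβ2 siRNA, against 8.95, 8.91 and 8.91 with control siRNA, a change of -0.38 (SE 0.05, adjusted p = 0.00116). FANCC, the subunit that binds FANCE, read 6.64, 6.63 and 6.65 with ERβ2 siRNA, against 6.86, 6.90 and 6.85 with control siRNA, a change of -0.23 (SE 0.05, adjusted p = 0.0112). The spread within these groups was a small part of the gap. FANCF, the adaptor between the complex and FANCM, rose: it read 5.85, 6.06 and 6.08 with ERβ2 siRNA, against 5.44, 5.34 and 5.43 with control siRNA. That is a change of 0.59 (SE 0.07, adjusted p = 6.4e-04) or 1.51-fold, just inside the 1.5-fold threshold. FANCE was higher by 0.24 (SE 0.08, adjusted p = 0.0629). The FANCE call was lost without ERβ2 siRNA replicate 1 (0.19), ERβ2 siRNA replicate 2 (0.24), control siRNA replicate 2 (0.16) or control siRNA replicate 3 (0.26). It was also lost when centred on the median of the genes (0.15), in the test over all transcript clusters, at an adjusted p under 0.05 and by the study's own kind of test with Benjamini-Hochberg adjustment, 8 of 19 alternatives in all. The ubiquitin ligase subunit FANCL (-0.10, 95% CI -0.32 to 0.12), the translocase FANCM (-0.10, -0.26 to 0.07) and FANCB (-0.05, -0.18 to 0.09) did not pass, though FANCM did as lower (-0.18) in 2 scalings. FANCI, the substrate of the complex, was lower by a change of -0.23 (SE 0.05, adjusted p = 0.0129).

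The break-sensing complex was uneven. NBN, the subunit that recruits ATM, read 9.06, 9.09 and 9.12 with ERβ2 siRNA, against 8.56, 8.49 and 8.24 with control siRNA. The spread lay in the control siRNA arrays, and even the brightest of them was well below the dimmest ERβ2 siRNA array. NBN was higher by 0.66 (SE 0.08, adjusted p = 7.1e-04), 1.58-fold. RAD50, the ATPase subunit, read 9.03, 8.91 and 8.92 with ERβ2 siRNA, against 9.13, 8.86 and 8.92 with control siRNA, and the groups overlapped fully. Its change was -0.02 (95% CI -0.20 to 0.17), and its sign turned with the scaling. The nuclease MRE11 changed by 0.10 (-0.05 to 0.26, adjusted p = 0.286). The intervals of both end below that of NBN, which runs from 0.47 to 0.85, but the difference between genes was not tested.

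Both apical kinases rose and neither effector kinase passed. ATR, which responds to stalled forks, read 8.47, 8.45 and 8.48 with ERβ2 siRNA, against 8.18, 8.11 and 8.13 with control siRNA, a change of 0.33 (SE 0.05, adjusted p = 0.00227). ATM, which responds to breaks, read 8.15, 8.30 and 8.36 with ERβ2 siRNA, against 8.01, 7.93 and 7.97 with control siRNA, a change of 0.30 (SE 0.07, adjusted p = 0.0118). ATM was more spread than ATR, but in both the groups were apart. CHEK1, the target of ATR, read 9.21, 9.20 and 9.15 with ERβ2 siRNA, against 9.16, 9.17 and 9.22 with control siRNA. It had the smallest change of the set, 0.00 (SE 0.05, 95% CI -0.12 to 0.13), with a sign that turned with the scaling, and CHEK2, the target of ATM, changed by -0.07 (95% CI -0.26 to 0.12).

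**Figure D2:**
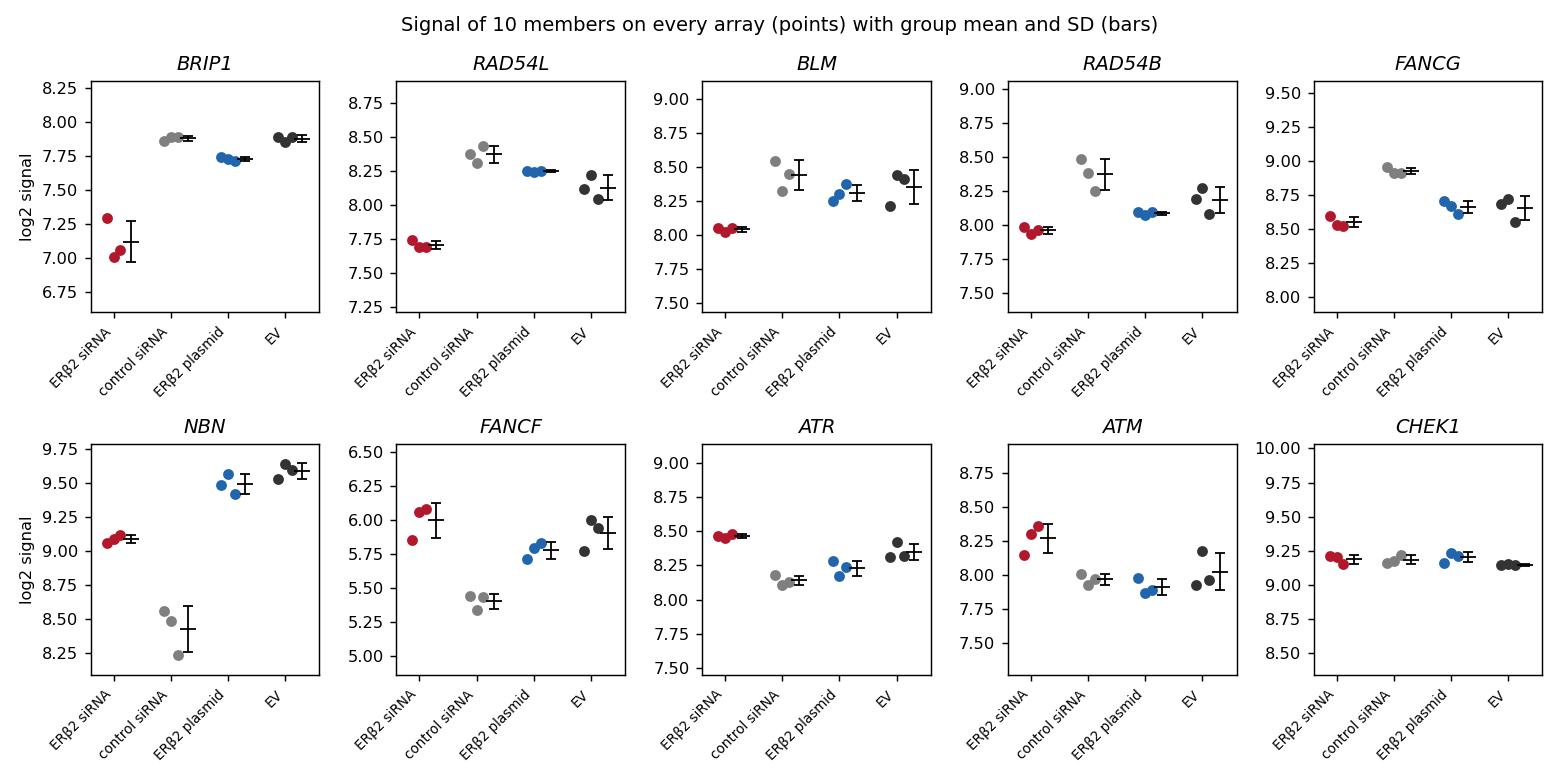
Log2 signal of 10 members on every array (points), with the mean and SD of each group (bars beside the points, n = 3), for ERβ2 siRNA, control siRNA, ERβ2 plasmid and EV from left to right. Each panel spans the same range of log2 units but starts at its own level: BRIP1 and RAD54L are lowest in the ERβ2 siRNA arrays, NBN is lowest in the control siRNA arrays, and CHEK1 stays between 9.14 and 9.23.

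Other genes of the pathway were lower more often than higher. Of 49 measured further homologous recombination and Fanconi genes, 22 were lower and 5 higher with ERβ2 siRNA (44.9% and 10.2%, against 17.5% and 18.3% of all genes), with a median change of -0.12. Every measured gene of this list, and of the end joining and proliferation lists below, had a mean of at least 5. Among all genes of at least that mean, 22.6% were lower and 30.7% higher. EXO1, the exonuclease that resects breaks, changed by -0.66 (SE 0.06, adjusted p = 1.0e-04), and CLSPN, DNA2 and H2AX by -0.43 each. CLSPN is the adaptor for CHEK1, DNA2 a resection nuclease and H2AX the histone marked at breaks. Of 12 measured end joining genes, which rejoin breaks without a template, 3 were lower and 1 higher (25.0% and 8.33%, near the 17.5% and 18.3% of all genes for a list this small), with a median of 0.05. LIG4, the ligase of that route, changed by -0.30 (SE 0.06, adjusted p = 0.00879), XRCC4 by -0.24, DCLRE1C by -0.14 and PAXX by 0.19.

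Markers of S phase and proliferation also moved with this comparison. Of 19 measured, 10 were lower and 1 was higher (52.6% and 5.26%, against 17.5% and 18.3% of all genes), with a median change of -0.21. Their median signal was 9.70 to 9.78 in the ERβ2 siRNA arrays, against 9.92 to 9.95 in the control siRNA arrays, and their summed linear signal was 18240 to 18606 against 20680 to 21433. CCNA2 changed by -0.44, CDK1 by -0.42, CDC6 by -0.40 and GINS2 by -0.38. The 1 that was higher was MCM6 (0.16), and 8 did not pass, among them MCM2, MCM3, MCM4, MCM5 and MCM7. The part that the cycling state of the cells has in the members' falls was not tested, and in bulk RNA fewer cells that express a gene and less RNA per cell cannot be told apart.

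**Figure D3:**
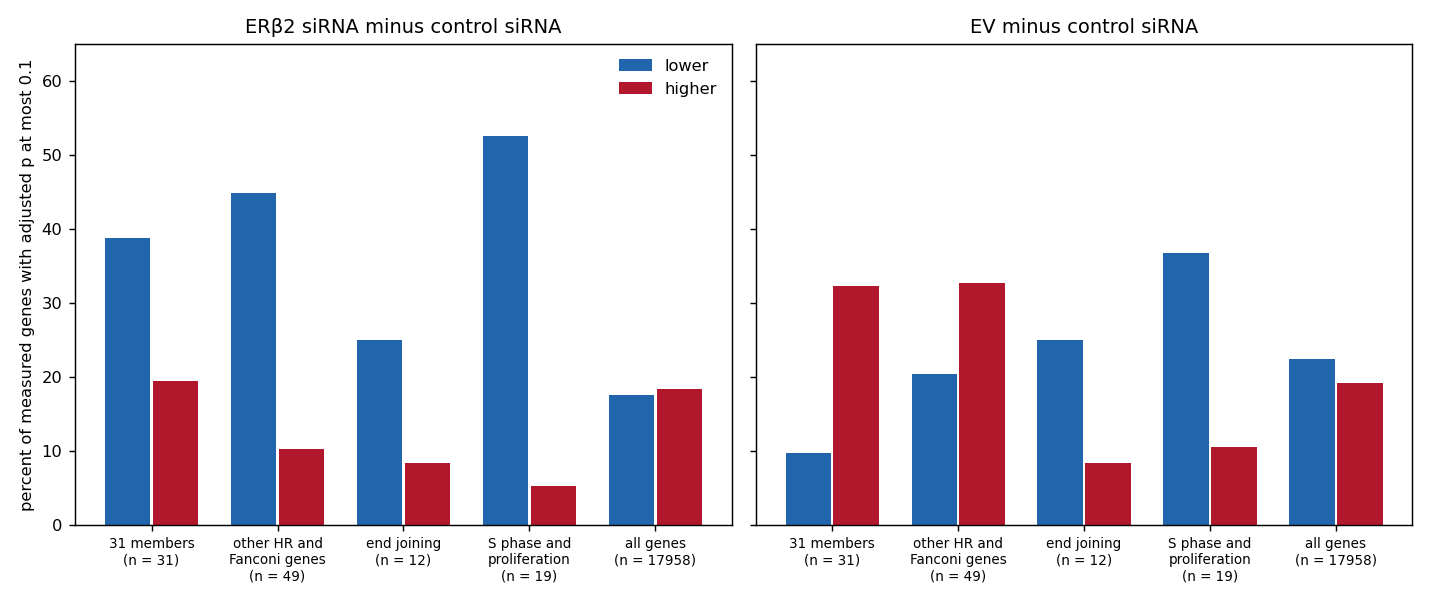
Percent of measured genes that were lower or higher at an adjusted p of at most 0.1, by list, for ERβ2 siRNA minus control siRNA (left) and EV minus control siRNA (right), with all 17958 genes as the last pair of bars. In the left panel 38.7% of the members were lower and 19.4% higher, and in the right panel 9.68% were lower and 32.3% higher.

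With ERβ2 plasmid no member passed. That is 0 of 31, in a comparison in which 2 of 17958 genes passed (0.0111%). Unadjusted, limma gave p under 0.05 for 4 members and for 1260 genes, and the study's own kind of test, run on the same values, also passed 0 members after adjustment. The changes ran from -0.22 to 0.12. Their median was -0.10, against 0.00 over all genes, and it was -0.04 without EV replicate 2, the array that was high for most members.

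The smallest p of the comparison was that of BRIP1, with 7.74, 7.73 and 7.71 with ERβ2 plasmid, against 7.89, 7.85 and 7.89 with EV, a change of -0.15 (SE 0.05, adjusted p = 0.585). FANCL read 6.83, 6.80 and 6.96 with ERβ2 plasmid, against 7.05, 7.23 and 6.97 with EV, a change of -0.22 (SE 0.08, adjusted p = 0.66). EME1 read 6.60, 6.36 and 6.50 with ERβ2 plasmid, against 6.65, 6.81 and 6.62 with EV, a change of -0.21 (SE 0.08, adjusted p = 0.675). In these 3 genes no plasmid array reached an EV array, although by as little as 0.01 in FANCL. They were picked for their small p, and the share of all genes without overlap was not counted. RMI1 (-0.12) also lay below EV on every plasmid array. The motor RAD54L went the other way, with 8.25, 8.24 and 8.25 with ERβ2 plasmid, against 8.12, 8.22 and 8.04 with EV. Its groups did not overlap either, with a change of 0.12 (95% CI -0.02 to 0.26).

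Among the other members that moved with ERβ2 siRNA, NBN, FANCF, BLM, RAD54B, FANCG and FANCC overlapped between ERβ2 plasmid and EV. NBN read 9.49, 9.57 and 9.42 with ERβ2 plasmid, against 9.53, 9.64 and 9.60 with EV. FANCF read 5.71, 5.79 and 5.83 with ERβ2 plasmid, against 5.77, 6.0 and 5.94 with EV. Both overlapped, with changes of -0.10 (95% CI -0.24 to 0.04) for NBN and -0.13 (-0.29 to 0.04) for FANCF. BLM read 8.25, 8.30 and 8.37 with ERβ2 plasmid, against 8.21, 8.44 and 8.41 with EV. RAD54B read 8.09, 8.07 and 8.09 with ERβ2 plasmid, against 8.19, 8.27 and 8.08 with EV. These helicase and motor genes overlapped as well. FANCG read 8.70, 8.67 and 8.61 with ERβ2 plasmid, against 8.68, 8.72 and 8.55 with EV. In FANCC the values were 6.77, 6.87 and 6.82 with ERβ2 plasmid, against 6.79, 7.18 and 6.93 with EV. EV replicate 2 was the brightest EV array in all 6 of these genes.

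The mediators and kinases were also close, but not all overlapped. RAD51AP1 read 8.01, 8.31 and 8.23 with ERβ2 plasmid, against 8.20, 8.21 and 8.13 with EV. PALB2 read 8.68, 8.82 and 8.78 with ERβ2 plasmid, against 8.82, 8.92 and 8.86 with EV. Both overlapped, PALB2 at one shared value. ATR read 8.28, 8.17 and 8.24 with ERβ2 plasmid, against 8.31, 8.42 and 8.32 with EV, and ATM 7.98, 7.87 and 7.89, against 7.93, 8.18 and 7.96. RAD50 read 9.13, 9.06 and 9.12 with ERβ2 plasmid, against 9.12, 9.31 and 9.19 with EV. CHEK1 read 9.16, 9.23 and 9.21 with ERβ2 plasmid, against 9.14, 9.15 and 9.14 with EV. ATM and RAD50 overlapped, while every ERβ2 plasmid array of ATR lay below and every one of CHEK1 above the EV arrays. All 4 genes stayed within 0.12 of EV on average, and none passed.

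**Figure D4:**
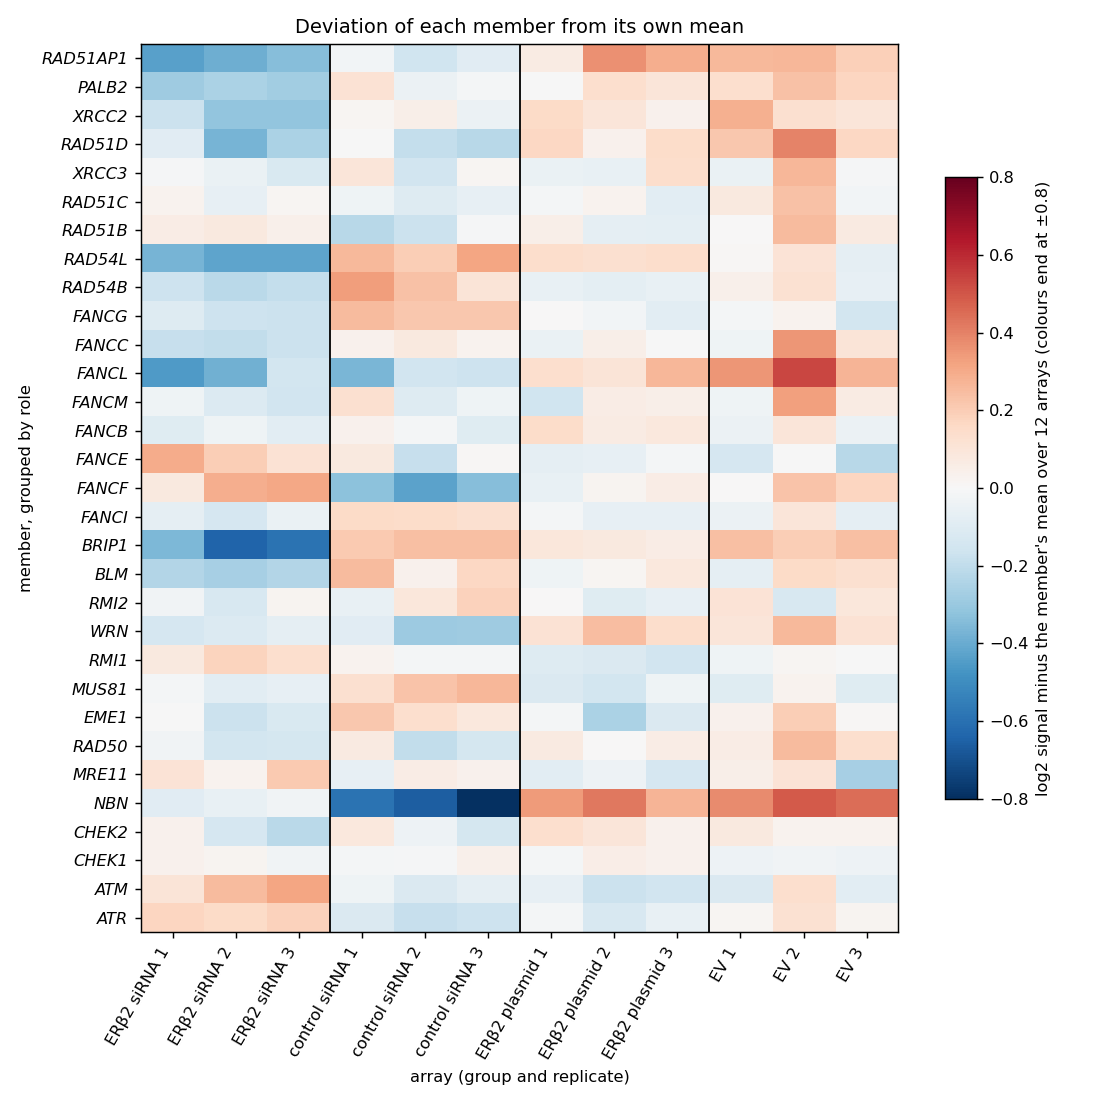
Log2 signal of each measured member on each of the 12 arrays minus the member's own mean over the arrays (colour, ending at ±0.8), with members down the page by role and arrays across it by group. The ERβ2 siRNA columns are blue for RAD54L, BRIP1, BLM and RAD51AP1, the control siRNA columns are blue for NBN and FANCF, and EV replicate 2 is redder than the other EV arrays for most members.

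The 2 control groups differed from each other in more members, and in more genes at large, than ERβ2 plasmid and EV did. With EV, 10 members were higher (32.3%, against 19.2% of all genes) and 3 were lower (9.68%, against 22.4% of all genes) than with control siRNA. Without dim genes (a mean under 5), 11 members were higher and 5 lower, against 29.0% and 26.2% of genes. Genes as bright as the members were thus higher more often than all genes, and the 32.3% lay nearer to their share. Plasmid and siRNA, time after transfection and the 2 experiments change together here and cannot be told apart. With arrays centred on the median of their genes, 6 members were higher and 12 lower, and all genes split into 12.3% higher and 57.4% lower, so the balance between the directions rests on the scaling. Without EV replicate 2, the split was 7 higher and 5 lower, with 17.5% of all genes higher and 22.4% lower.

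NBN stood out, with the EV arrays at 9.53, 9.64 and 9.60 and the control siRNA arrays at 8.56, 8.49 and 8.24, a change of 1.16 (SE 0.09, adjusted p = 3.1e-05) or 2.23-fold. FANCL was higher at 7.05, 7.23 and 6.97 with EV, against 6.33, 6.54 and 6.53 with control siRNA, a change of 0.62 (SE 0.09, adjusted p = 0.00111). FANCF was higher at 5.77, 6.0 and 5.94 with EV, against 5.44, 5.34 and 5.43 with control siRNA, a change of 0.50 (SE 0.08, adjusted p = 0.00139). None of the 3 overlapped, and NBN and FANCF were thus lowest in the control siRNA arrays of all 4 groups. RAD51D (0.40), WRN (0.38), RAD51AP1 (0.33), RAD51B (0.24), RAD50 (0.24), ATR (0.21) and PALB2 (0.16) were the other members that passed as higher with EV, and FANCG (-0.27), MUS81 (-0.26) and RAD54L (-0.24) those that passed as lower. BRIP1 differed by 0.00 (95% CI -0.13 to 0.12), at 7.89, 7.85 and 7.89 with EV, against 7.86, 7.89 and 7.89 with control siRNA. The calls of PALB2 (0.13 to 0.21), RAD50 (0.18 to 0.32) and RAD51B (0.17 to 0.30) were lost in most fits that left out 1 array, among them, for all 3 genes, those without EV replicate 2, EV replicate 3 or control siRNA replicate 2. PALB2 also lost it without EV replicate 1, PALB2 and RAD50 without control siRNA replicate 3, and RAD51B without control siRNA replicate 1. With arrays centred on the median of their genes, PALB2 (0.01), RAD50 (0.08), RAD51B (0.08) and ATR (0.05) all lost their calls. PALB2 (0.13) and RAD51B (0.07) also lost them when quantile normalized again, and PALB2 and RAD50 with the replicate block. That of RAD54L was lost without EV replicate 3 (-0.20).

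Interferon-stimulated genes moved with this comparison far more than any member. All 10 measured were higher with EV than with control siRNA, with a median change of 5.91, led by IFI44L (6.81), MX1 (6.48), IFIT1 (6.38) and IFIT2 (6.21). Their summed linear signal was 24660 to 26836 with EV, against 1274 to 1484 with control siRNA. Their part in the levels of NBN, FANCL and FANCF was not tested. With ERβ2 siRNA, 1 of the 10 was higher and 2 were lower than with control siRNA, and with ERβ2 plasmid none passed against EV. Of the further recombination genes, 16 were higher and 10 lower with EV, among them SFR1 (0.91), PSMC3IP (0.71), CLSPN (0.68) and RAD52 (0.65). End joining had 1 higher (LIG4, 0.47) and 3 lower, and the proliferation markers 2 higher and 7 lower, with CCNA2 at -0.50 and CDK1 at -0.49.

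The effect of ERβ2 siRNA was set against that of ERβ2 plasmid in 1 fit over the 12 arrays. The knockdown effect lay below the overexpression effect in 7 members (22.6%, against 11.3% of all genes) and above it in 6 (19.4%, against 15.0%). Without dim genes it lay below in 10 members and above in 6, against 16.5% and 25.8% of genes. The 19.4% of members above is therefore not an excess over genes of like brightness. The motor RAD54L had the widest gap downward, with -0.66 after ERβ2 siRNA and 0.12 with ERβ2 plasmid (difference -0.78, SE 0.08, adjusted p = 2.3e-05), and NBN upward, with 0.66 and -0.10 (difference 0.76, SE 0.11, adjusted p = 3.4e-04). FANCF followed at 0.72 (SE 0.11, adjusted p = 4.7e-04). BRIP1, whose estimates are both below 0, differed by -0.61 (SE 0.09, adjusted p = 5.2e-04). RMI1, which passed in neither experiment alone, passed here at 0.25 (SE 0.07, adjusted p = 0.0194), with estimates of 0.13 after ERβ2 siRNA and -0.12 with ERβ2 plasmid. Time after transfection (48 h and 24 h), siRNA or plasmid, and the transfection reagent all differ between the experiments. A difference of effects is therefore also one between these, and their parts cannot be told apart.

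Across the 4 groups, 17 members had their lowest mean with ERβ2 siRNA, 11 had their highest with EV and 9 had their highest with control siRNA. The shares over all genes were not counted, so these counts are not read as a trait of the set. EV replicate 2 was the highest EV array for 27 of the 31 members. The means of RAD54L were 7.71 ± 0.03 with ERβ2 siRNA, 8.37 ± 0.06 with control siRNA, 8.25 ± 0.01 with ERβ2 plasmid and 8.13 ± 0.09 with EV (SD, n = 3 each). Those of NBN were 9.09 ± 0.03 with ERβ2 siRNA, 8.43 ± 0.17 with control siRNA, 9.49 ± 0.08 with ERβ2 plasmid and 9.59 ± 0.06 with EV. RAD54L was thus lowest with ERβ2 siRNA alone, while the ERβ2 siRNA level of NBN lay between that of control siRNA and those of the plasmid groups. The range of the 4 means was 1.16 for NBN, 0.76 for BRIP1, 0.72 for FANCL, 0.66 for RAD54L and 0.63 for RAD51AP1, and 0.06 for CHEK1.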

How the data were processed

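RNA of BT549 cells, with 3 biological replicates for each group, was measured on whole-transcript Affymetrix arrays of the Human Gene ST family. The deposited values are log2 signals, for which the authors ran RMA (background correction, normalization between arrays and 1 value per transcript cluster) in Expression Console, whose version was not given in the sources used here. For the log base, 2 was assumed, as RMA gives it. Values ran from 2.02 to 13.46. The number of arrays limits the precision.

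Symbols came from the platform's annotation. For 19143 of the clusters with 1 symbol the gene ID was in RefSeq, and the RefSeq symbol was used. For the members the 2 symbols were the same. Of 33297 clusters 19181 had 1 symbol, 2055 several and 12061 were not in the annotation, and for 895 genes with several clusters the one with the highest mean over 12 arrays was used, which left 17958 genes. No member lay under a mean of 5. Groups were compared, 3 arrays against 3, by lmFit and eBayes of limma 3.58.1, under R 4.3.3 and with no replicate block, and p-values were adjusted by Benjamini-Hochberg over all genes. The threshold to pass was an adjusted p of 0.1 or less, and a gene was called at a fold of at least 1.5 with an unadjusted p under 0.05. The difference of effects was a contrast over 12 arrays. The code was tested on simulated data.

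The members and the lists were chosen with earlier results of these data known. Values on every array are given for members called at 1.5-fold or among the 12 smallest p with ERβ2 siRNA, the 3 smallest p in each of the other 2 comparisons, and the 2 members with the smallest change among those brighter than the median gene. From each list up to 4 genes with the largest fold among those that passed are named, besides the MCM genes of the proliferation list. XRCC2, MUS81 and the other members are named by their changes. Samples were not treated as paired by replicate number in the main fits. Alternatives were other normalizations and centrings (1 chosen after seeing the data), filters, thresholds, fits, the study's t-test and leaving out each array.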

Additional observations from a re-analysis of the deposited data

Results flagged for a closer look

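The effects of ERβ2 siRNA and ERβ2 plasmid differed by the test of the difference itself in 13 members, given here as the log2 effect of the siRNA minus that of the plasmid. The siRNA effect was the lower one for RAD54L (-0.78, adjusted p = 2.3e-05), BRIP1 (-0.61), FANCG (-0.39), BLM (-0.35), RAD54B (-0.32), RAD51AP1 (-0.30, adjusted p = 0.0584) and MUS81 (-0.22, adjusted p = 0.0813). It was the higher one for NBN (0.76, adjusted p = 3.4e-04), FANCF (0.72), ATR (0.45), ATM (0.41), RAD51B (0.33) and RMI1 (0.25). The calls of RAD51AP1 (-0.39 to -0.24) and MUS81 (-0.26 to -0.18) were lost in 5 and 8 of the 12 fits that left out 1 array. The other 11 members passed in all 12 such fits. With arrays centred on the median of their genes, RAD51B (0.21) and RMI1 (0.13) lost their calls, and RAD51B (0.21) also when quantile normalized again. MUS81 lost its call with the replicate block (-0.22) and both MUS81 (-0.19) and RAD51AP1 (-0.27) when centred on the median of all clusters. In the test over all transcript clusters, and at an adjusted p under 0.05, RAD51AP1 and MUS81 did not pass. Arrays per group were too few for a test of single outlying arrays.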

How the results depend on the processing

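With ERβ2 siRNA, 19 of 31 members kept their side of the threshold and their sign under every alternative run, 2 lost a call somewhere (RAD51B and FANCE), 5 gained one and 5 turned sign. The members that turned sign had not passed. RAD51C read 0.00 when quantile normalized again and -0.03 when centred on the median of the genes. CHEK1 read -0.03 when quantile normalized again, -0.02 with cyclic loess, -0.08 when centred on the median of the genes, and -0.01 to 0.02 when 1 array was left out. When centred on the median of all clusters, an alternative chosen after seeing the data, XRCC3 read 0.00, FANCB 0.01 and RAD50 0.04. Leaving out 1 array moved XRCC3 between -0.12 and 0.01 and RAD50 between -0.07 and 0.06. The members lower with EV than with control siRNA numbered 3, with 22.4% of all genes, against 5 without dim genes (26.2%), 7 when quantile normalized again (24.6%), 12 when centred on the median of the genes (57.4%), 5 with an intensity trend and robust prior (22.9%), 5 in 1 fit over all 4 groups (26.6%), 6 by the study's t-test with q-values (32.2%), and 2 to 5 when 1 array was left out. The members higher with EV numbered 10, against 6 when centred on the median of the genes (19.2% and 12.3% of all genes). The members whose siRNA effect lay below the plasmid effect numbered 7 (11.3% of all genes), against 11 when quantile normalized again (13.8%), with cyclic loess (12.2%) or when centred on the median of the genes (26.9%). The cause of these changes was not tested. Deviations of arrays with the same replicate number correlated at 0.01 to 0.22 in the siRNA groups, against -0.19 to 0.06 for unlike numbers. In the plasmid groups the same numbers gave -0.14 to 0.10, against -0.13 to 0.19 for unlike ones. These values do not settle whether the numbers pair the samples. With the replicate block 12 members were lower and 6 higher with ERβ2 siRNA (19.2% and 19.1% of all genes), 0 passed with ERβ2 plasmid, and 3 were lower and 8 higher with EV than with control siRNA (19.1% and 17.4%). Differences of effects passed in 6 and 6 members with the block (11.2% and 14.4%).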
